A study of Homo sapiens with 18 samples.

Results

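The Krüppel-like factors are transcription factors that share a DNA-binding domain of zinc fingers at their carboxy-terminal end and bind GC-rich and CACCC-type sequences in promoters. They differ in the rest of the protein: some recruit histone acetyltransferases and mostly activate, some recruit the corepressor CtBP, and some recruit the SIN3A corepressor with its histone deacetylases. In lymphocytes members of the family are known for control of quiescence, growth arrest and homing, and several are early response genes of mitogens or of TGF-beta. The genes described here are the 10 listed members KLF2, KLF3, KLF4, KLF6, KLF7, KLF9, KLF10, KLF11, KLF12 and KLF13. They were chosen by symbol, each measured by its brightest probe set that names 1 gene, and all 10 were found among the 18417 genes of the arrays.

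The levels come from Raji cells, an established line from a Burkitt lymphoma that carries Epstein-Barr virus, harvested at 0, 4, 8, 12, 24 or 48 h with 3 arrays labelled biological replicates at each time, 18 arrays in all. By the labels every array, those of 0 h included, received the same agents: sodium n-butyrate at 3 mM, which inhibits histone deacetylases, a phorbol ester at 0.05 µM, which activates protein kinase C, and maslinic acid at 19 µM, a plant triterpene. Cells without one or all of these agents were not analysed here, so effects of a single agent, of the agents together and of time in culture cannot be told apart. The labels name the replicates biological but not what separated them, so p-values measure the spread between these arrays.

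Of the 6 B cell marker genes measured, 5 lay above the upper quartile at 0 h, and 0 of the 16 markers of T cells, monocytes, epithelium and erythroid cells did. Array medians lay between 4.03 and 4.25 on the log2 scale. The interquartile range was 2.37 on replicate 2 of 8 h, against 2.74 to 3.16 on the other 17 arrays. A level below is a log2 intensity, and a difference is a later minus an earlier mean on that scale. A gene was called, and is said to have risen, where the limma test, a linear model with moderated errors fitted to all genes and arrays, gave a Benjamini-Hochberg adjusted p under 0.05 over all 18417 genes. Levels of different genes are not compared, since each probe set has its own response.

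A RefSeq promoter (GRCh38.p14, from 250 bases before to 50 after a start site) was used for 8 of the 10 genes. These had 15 promoters in all. None was used for KLF3 or KLF10, and for KLF10 this followed from a filter described with the processing. The 3 promoters below are shown because the family is best known for binding GC boxes and they carry such boxes themselves. KLF6 is the called member for which a promoter was used, and KLF2 and KLF13 are members that were not called. Each is written 5′ to 3′ along the gene. Capitals mark the GC box GGGCGG on either strand.
KLF6, chr10:3785160-3785459, minus strand: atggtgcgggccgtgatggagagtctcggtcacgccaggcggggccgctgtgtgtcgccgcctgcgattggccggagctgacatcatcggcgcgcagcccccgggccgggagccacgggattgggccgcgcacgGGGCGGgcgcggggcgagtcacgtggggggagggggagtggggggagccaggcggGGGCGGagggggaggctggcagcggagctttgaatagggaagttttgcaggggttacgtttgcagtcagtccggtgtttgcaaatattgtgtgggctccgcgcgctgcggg
KLF2, chr19:16324576-16324875, plus strand: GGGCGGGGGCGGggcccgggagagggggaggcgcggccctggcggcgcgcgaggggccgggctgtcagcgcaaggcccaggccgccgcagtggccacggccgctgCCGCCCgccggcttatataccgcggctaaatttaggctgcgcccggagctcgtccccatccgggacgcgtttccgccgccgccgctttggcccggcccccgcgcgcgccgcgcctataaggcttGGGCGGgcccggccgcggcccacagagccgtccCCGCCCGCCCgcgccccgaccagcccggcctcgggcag
KLF13, chr15:31326585-31326884, plus strand: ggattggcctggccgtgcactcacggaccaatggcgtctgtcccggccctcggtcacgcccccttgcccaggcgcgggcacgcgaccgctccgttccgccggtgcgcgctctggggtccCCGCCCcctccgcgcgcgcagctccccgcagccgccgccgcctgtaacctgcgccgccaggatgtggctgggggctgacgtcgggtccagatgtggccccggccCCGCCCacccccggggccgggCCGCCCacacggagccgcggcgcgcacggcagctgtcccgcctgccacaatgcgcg

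The KLF6 promoter held 2 GC boxes, that of KLF2 held 6, of which 2 overlap, and that of KLF13 held 3. Their GC content was 70.7%, 80.7% and 78.3%. Counted per promoter, 8 of the 15 used carried a GC box (53.3%), near the 45% of all 35116 promoters given. By gene, 7 of the 8 had one in at least 1 of their promoters, all but KLF9. No such share was computed for all genes, and KLF7, KLF11 and KLF12, with several promoters, had more chances of a match. The CCAAT box, searched as CCAAT on both strands, was in 6 of the 15 (40%, against 34.6% of all promoters) and the AP-1 site TGACTCA in 0 of 15 (4.95% of all). The cyclic AMP response element TGACGTCA was in 1 promoter, of KLF11 (1.85% of all). A match describes these letters only. The 3 printed promoters were chosen for carrying GC boxes, so boxes in all 3 say nothing about which gene rose. Whether GC boxes go with a rise was not tested.

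Across the time course, KLF3, KLF6 and KLF10 rose and the other 7 members were not called. The moderated F test, which asks whether a gene differed from 0 h at any time, called 3 of the 10 members, and it called 16.4% of all genes. Its adjusted p was 0.00132 for KLF3, 0.0116 for KLF6 and 0.0156 for KLF10. KLF10 did not pass it without replicate 2 or 3 of 0 h (adjusted p = 0.0672 and 0.102), nor KLF6 without replicate 2 of 0 h (0.0548). At 4 h 2 members rose, KLF3 and KLF10, where 1.16% of all genes were called higher and 0.586% lower. KLF10 was the 1 member that rose at 8 h (3.5% of all genes higher, 3.18% lower) and the 1 that rose at 12 h (3.91% and 4.14%). All 3 rose at 24 h (6.74% and 5.74%) and at 48 h (6.92% and 8.11%). No member was called lower: the count was 0 at every later time by limma's adjusted p, and at unadjusted p under 0.05 again 0 at each. The median difference of the 10 members from 0 h ran from -0.04, at 8 h, to 0.21, at 24 h and at 48 h. The median over all genes lay between -0.02 and 0.05.

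**Figure D1:**
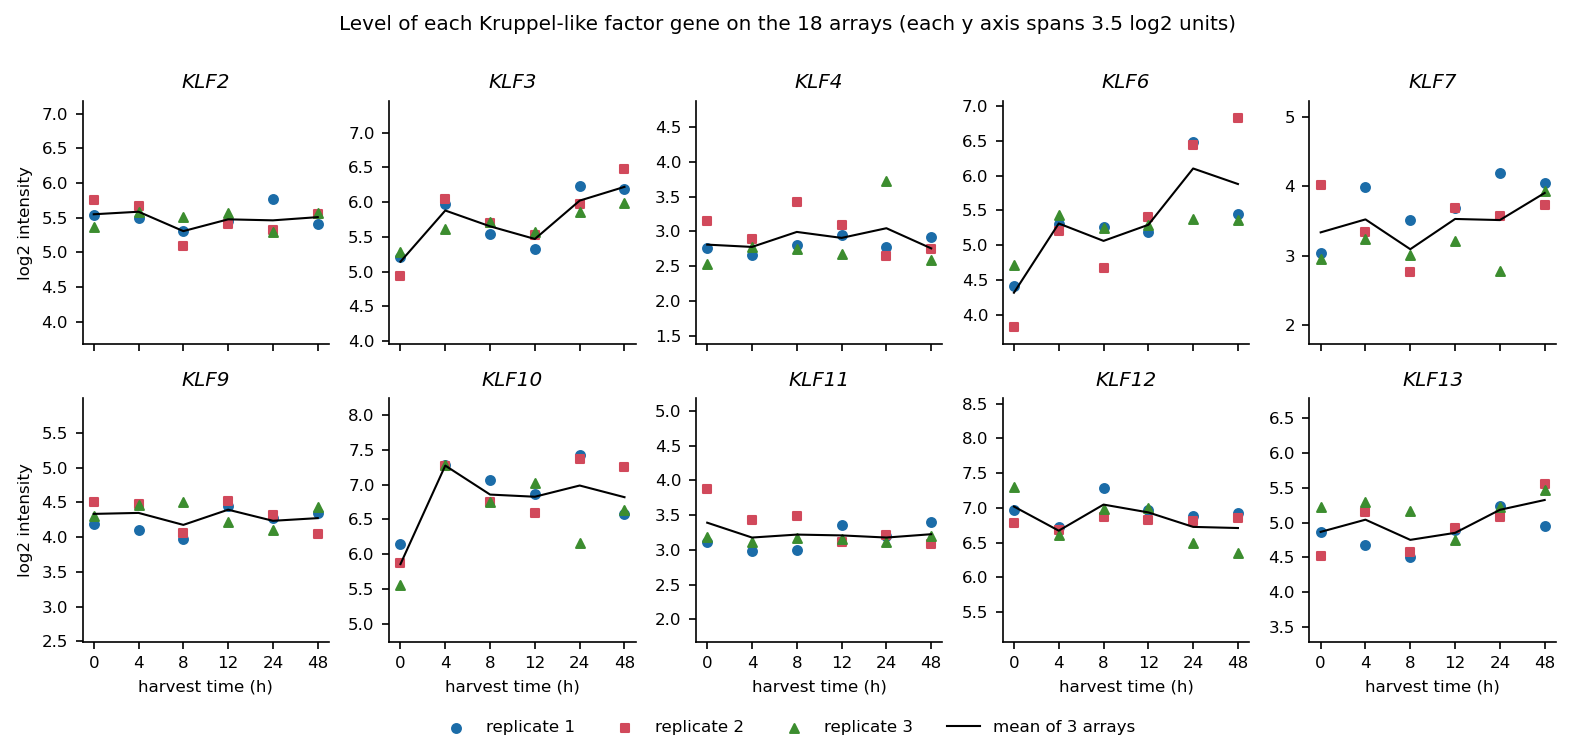
Log2 intensity of each of the 10 genes (y axes, each spanning 3.5 log2 units) against harvest time in h (x axis, times evenly spaced), with 1 symbol per array by replicate number and a line through the means of 3 arrays. KLF3, KLF6 and KLF10 are lowest at 0 h, and replicate 3 of 24 h lies below the other 24 h arrays in KLF6 and KLF10.

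Among the members known to bind SIN3A (KLF9, KLF10, KLF11 and KLF13), KLF10 rose at every later time. KLF10, also called TIEG, is an early response gene of TGF-beta whose product slows growth. At 0 h its levels were 6.14, 5.87 and 5.56 on replicates 1 to 3, and at 4 h they were 7.28, 7.26 and 7.28. The 4 h arrays thus lay close together and above every 0 h array. The mean rose 2.67-fold, from 5.86 ± 0.29 to 7.27 ± 0.01 (SD, n = 3 each), a difference of 1.42 (SE 0.27, limma adjusted p = 0.0122), and it was the 54th largest among all genes at 4 h.

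The 8 h levels of KLF10 were 7.07, 6.76 and 6.75, and those of 12 h were 6.87, 6.59 and 7.02. All 6 of these arrays lay above the 0 h arrays and below the 4 h arrays. The differences from 0 h were 1.00 at 8 h (adjusted p = 0.0326) and 0.97 at 12 h (adjusted p = 0.0335). At 24 h the levels were 7.43, 7.37 and 6.16, the last only just above the highest 0 h array, and at 48 h they were 6.57, 7.25 and 6.63. The differences from 0 h were 1.13 at 24 h (adjusted p = 0.00894) and 0.96 at 48 h (adjusted p = 0.0207). In the order of means, 4 h stood first and was followed by 24 h, 8 h, 12 h, 48 h and 0 h. Among neighbours in this order only 48 h and 0 h did not overlap, and the step from 4 h to 8 h was not called (-0.42, adjusted p = 0.694).

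The direction of these differences held under each of 26 alternatives, while the calls depended on which arrays were included. For the direction most of these could not have given another result. Leaving out an array of another time does not change a difference. Leaving out 1 array could not reverse it either, since every later array lay above the 0 h arrays. Over the 26 alternatives KLF10 was higher by 1.27 to 1.56 at 4 h, 0.85 to 1.14 at 8 h, 0.82 to 1.11 at 12 h, 0.91 to 1.54 at 24 h and 0.75 to 1.11 at 48 h. The 4 h call did not pass once replicate 2 of that time was left out (adjusted p = 0.0512), with the difference still 1.42. At 8 h it was lost without replicate 2 or 3 of 0 h, or any of the 8 h arrays (adjusted p from 0.0591 to 0.133). At 12 h the same held without replicate 2 or 3 of 0 h or replicate 1 or 3 of 12 h (0.0886 to 0.136), and at 48 h without replicate 2 or 3 of 0 h or replicate 2 of 48 h (0.0577 to 0.112). At 24 h the call ended when replicate 1 or 2 of that time was left out (adjusted p = 0.0607 and 0.0585) and in the fit to only the 6 arrays of 0 h and 24 h (0.0558). Without replicate 3 of 24 h the 24 h difference was 1.54 (adjusted p = 0.000131).

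KLF11, called TIEG2 and the closest relative of KLF10, showed no such rise. It lay between 2.98 and 3.87 on all arrays, its differences from 0 h ran from -0.21 to -0.17, and the lowest adjusted p was 0.608, at 24 h. Its mean of 3.23 over all arrays was near their lower quartiles, 2.89 to 3.24, so a change in KLF11 could go unseen. Its highest level, 3.87, was that of replicate 2 of 0 h. The 95% interval of its 4 h difference was -0.62 to 0.19, and that of KLF10 was 0.85 to 1.99. KLF9, a hormone-responsive repressor, lay between 3.97 and 4.53, with differences from -0.16 to 0.06. KLF13, an activator of the chemokine gene CCL5 in T cells, had means of 4.87 ± 0.35 at 0 h and 5.33 ± 0.33 at 48 h (SD, n = 3 each), a difference of 0.46 (95% interval -0.00 to 0.92, adjusted p = 0.194). Its levels were 4.86, 4.52 and 5.22 at 0 h and 4.95, 5.56 and 5.46 at 48 h, and these groups overlap. A second, dimmer probe set of KLF13 differed by -0.01 at 48 h (adjusted p = 0.982).

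Of the members known to bind CtBP (KLF3 and KLF12), KLF3 rose. KLF3 is a repressor that takes part in the choice between B cell subsets. Its levels were 5.21, 4.93 and 5.29 at 0 h, 5.98, 6.04 and 5.62 at 4 h, and 5.54, 5.70 and 5.72 at 8 h. They were 5.32, 5.52 and 5.57 at 12 h, 6.23, 5.98 and 5.85 at 24 h, and 6.19, 6.48 and 5.99 at 48 h. All 15 later arrays lay above the 3 arrays of 0 h. The means went up by 4 h, were lower at 8 h and 12 h, and were highest at 24 h and 48 h.

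KLF3 rose by 0.74 at 4 h (SE 0.17, adjusted p = 0.028), by 0.88 at 24 h (adjusted p = 0.00154) and by 1.08 at 48 h (adjusted p = 0.00018). The last is a 2.11-fold rise, from 5.14 ± 0.19 to 6.22 ± 0.25 (SD, n = 3 each). At 8 h and 12 h it differed by 0.51 and 0.33 and was not called (adjusted p = 0.0828 and 0.28). The step from 12 h to 24 h was 0.55 (adjusted p = 0.133), and these groups did not overlap. The calls at 24 h and 48 h held under each of 26 alternatives, with adjusted p up to 0.0129 and 0.00656. That at 4 h, where the difference ran from 0.63 to 0.87, was lost under 6, among them the centring of each array on its median (adjusted p = 0.0507) and leaving out replicate 1 or 2 of 0 h or replicate 1 or 2 of 4 h (0.0578 to 0.149).

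The array annotation also names KLF3-AS1, a long noncoding RNA whose gene overlaps the start of KLF3 and runs the other way. Its probe set lay between 2.65 and 3.28 on the 18 arrays, about their lower quartiles (2.89 to 3.24), where a change could go unseen. It differed from 0 h by -0.22 to -0.07 and was not called (F test adjusted p = 0.832). KLF12, a repressor known to act on the gene of the transcription factor AP-2 alpha, lay between 6.35 and 7.31. Its 4 h levels of 6.73, 6.68 and 6.61 lay below its 0 h levels of 6.97, 6.79 and 7.31, a difference of -0.35 that was not called (adjusted p = 0.441).

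Of the members known mostly as activators (KLF2, KLF4, KLF6 and KLF7), KLF6 rose, and its 24 h difference was the largest of any member. KLF6 is a widely expressed early response gene that is known to activate CDKN1A, the gene of the cell cycle inhibitor p21. Its 0 h levels were 4.41, 3.82 and 4.72, its 4 h levels 5.31, 5.20 and 5.43, and its 8 h levels 5.26, 4.67 and 5.25. The 12 h levels were 5.18, 5.41 and 5.29, the 24 h levels 6.49, 6.44 and 5.38, and the 48 h levels 5.44, 6.83 and 5.37. Replicate 2 of 8 h overlapped the 0 h arrays, and the other 14 later arrays lay above them. At 24 h replicate 3, and at 48 h replicates 1 and 3, lay near the 4 h to 12 h arrays.

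KLF6 rose 3.45-fold at 24 h, from 4.32 ± 0.46 to 6.10 ± 0.63 (SD, n = 3 each), a difference of 1.79 (SE 0.35, adjusted p = 0.00177). At 48 h it stood at 5.88 ± 0.82 (SD, n = 3), higher by 1.56 (adjusted p = 0.00389). Its differences of 1.00 at 4 h, 0.75 at 8 h and 0.98 at 12 h were not called (adjusted p = 0.189, 0.267 and 0.0972). Without replicate 3 of 24 h the 24 h difference was 2.15 (adjusted p = 0.000498), and without replicate 2 of 48 h the 48 h difference was 1.09 (adjusted p = 0.0238). Both calls held under each of 26 alternatives, with adjusted p up to 0.0151 at 24 h and 0.032 at 48 h. KLF6 was lowest on replicate 2 of 0 h, the array without which it did not pass the F test.

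KLF2, which keeps lymphocytes quiescent and controls their homing, lay between 5.10 and 5.77 on the 18 arrays. It differed from 0 h by -0.24 to 0.04, and its 95% interval at 48 h was -0.37 to 0.29. KLF4, known to restrain the growth of B cells, was below the lower quartile of 14 of the 18 arrays, whose lower quartiles ran from 2.89 to 3.24. A change could go unseen at such a level. At 24 h its levels were 2.77, 2.65 and 3.73, so that replicate 3 was high in KLF4 and low in KLF6 and KLF10. KLF7, widely expressed and known from neurons, differed by 0.57 at 48 h (95% interval -0.12 to 1.26, adjusted p = 0.3). Its 48 h levels of 4.04, 3.72 and 3.93 overlapped the 0 h levels of 3.04, 4.02 and 2.94.

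For the 7 members not called, the 35 differences from 0 h ran from -0.35 to 0.57, and 34 of their 95% intervals lay within a 2-fold change in either direction. The exception was KLF7 at 48 h. These bounds are on the measured scale, on which probe sets near background can show less than the true change. Between consecutive times limma called 0 of the 10 members in each of the 4 intervals. By unadjusted p under 0.05 KLF3 and KLF6 passed between 12 h and 24 h, where 2039 of all 18417 genes did. In the other 3 intervals 0 of 10 passed, against 1580, 1221 and 1745 of all genes in order of time. The share of all genes called in either direction was 0.223% between 4 h and 8 h, 0% between 8 h and 12 h, 1.37% between 12 h and 24 h and 0.402% between 24 h and 48 h. With array weights 1 member was called between 4 h and 8 h, KLF12 (0.54, adjusted p = 0.0149), and 2 between 12 h and 24 h, KLF3 and KLF6 (adjusted p = 0.0122 and 0.0119). The weights were 5.18, 0.25 and 0.83 on replicates 1 to 3 of 8 h. The weighted 8 h mean thus rests mostly on replicate 1, which was the highest 8 h array in KLF12, at 7.29. At 24 h the weights were 1.33, 2.87 and 0.40, so replicate 3 counted least.

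**Figure D2:**
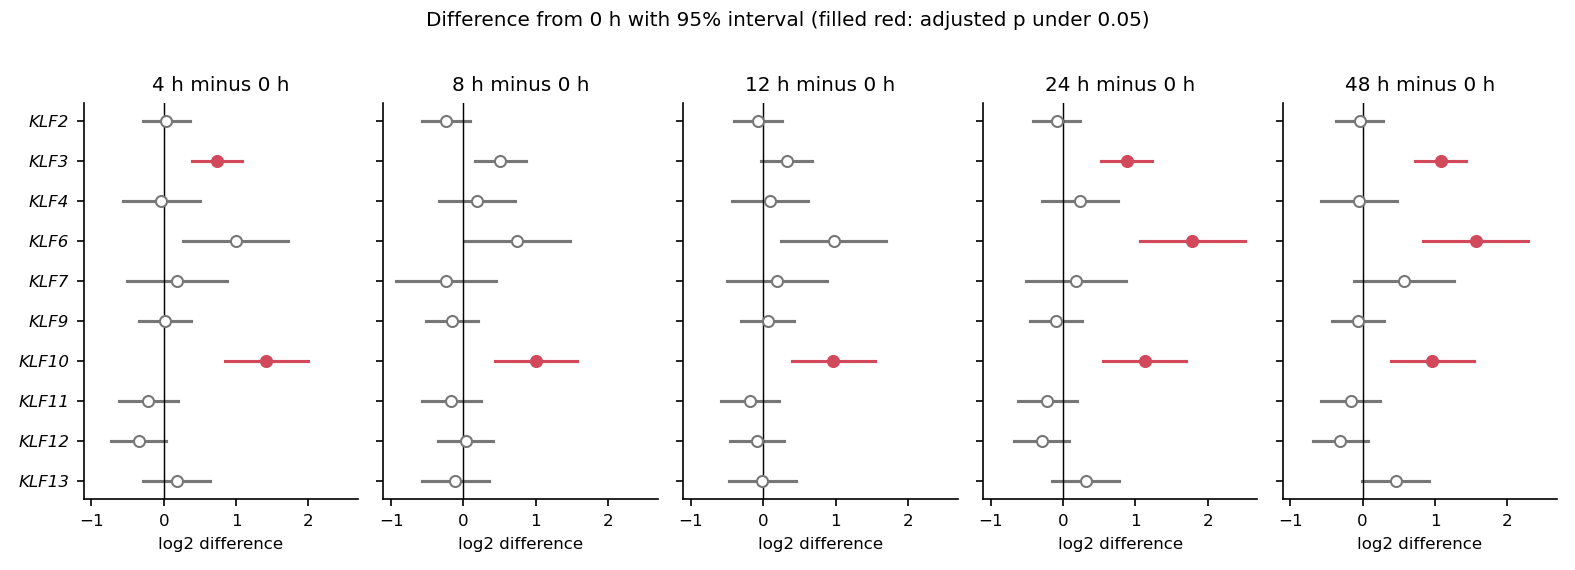
Difference of each later time from 0 h on the log2 scale (x axis) for the 10 genes (y axis), with 1 panel per later time; bars are 95% intervals of the limma fit and filled red points mark adjusted p under 0.05. KLF10 is filled at all 5 times, KLF3 at 4, 24 and 48 h, and KLF6 at 24 and 48 h.

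The called members also resembled each other over the 18 arrays, as a description without a test. Pearson's r was 0.82 for KLF3 with KLF6 (Spearman's rho 0.73), 0.70 for KLF6 with KLF10 (rho 0.54) and 0.63 for KLF3 with KLF10 (rho 0.56). All share the time course and the array normalization. With replicate 2 of 0 h and replicate 2 of 48 h left out, which lay farthest from the median in KLF3 and in KLF6, r was 0.67, 0.63 and 0.51. Taken as deviations from the mean of each time, the values were 0.62, 0.67 and 0.37. Likeness was not limited to the called members. Over the 18 arrays KLF13, not called, had r of 0.59 with KLF6, 0.55 with KLF3 and 0.14 with KLF10. The remaining uncalled members had at most 0.31 with these genes, and the lowest was -0.50, of KLF11 with KLF6. As deviations, KLF12, not called, had 0.64 with KLF6, 0.52 with KLF3 and 0.405 with KLF10. KLF2 and KLF7 each had 0.44 with KLF10, and KLF4 had -0.64 with KLF6 and -0.62 with KLF10.

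**Figure D3:**
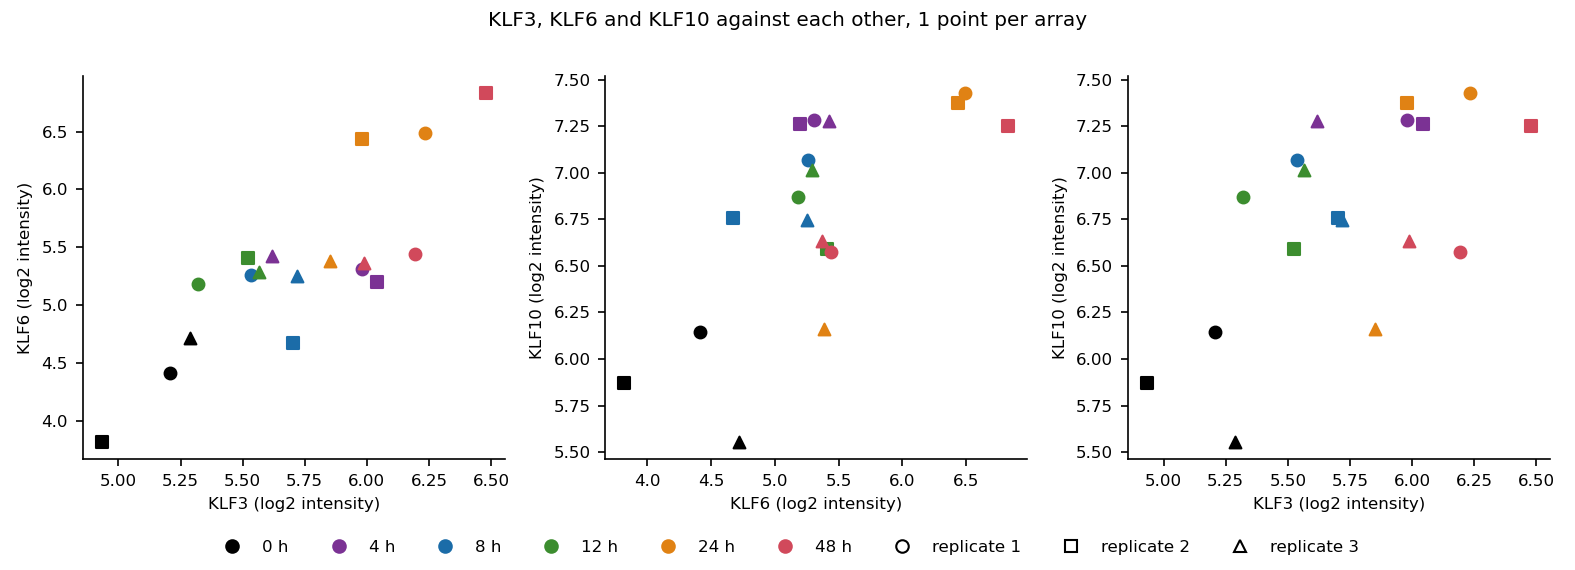
Log2 intensity of KLF6 against KLF3, KLF10 against KLF6 and KLF10 against KLF3, with 1 point per array, coloured by harvest time and shaped by replicate number. The 0 h arrays lie at the lower left, and replicate 3 of 24 h lies apart from the other 24 h arrays, at 5.38 in KLF6 and 6.16 in KLF10.

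The genes most like each called member over the 18 arrays were taken as the 3 of highest Pearson's r, as a description without a test. For KLF3 they were TANK (0.93), an adaptor of TRAF signalling, TCF7L2 (0.93), a Wnt transcription factor, and TNFAIP3 (0.90), a feedback inhibitor of NF-kappaB. For KLF6 they were TRIM38 (0.92), SERPINB8 (0.91) and again TNFAIP3 (0.91). For KLF10 they were MCL1 (0.93), the antiapoptotic BCL2 relative, CD83 (0.92), a surface protein of activated B cells, and SERTAD2 (0.91). TNFAIP3 stood at 8.21, 8.20 and 6.53 on replicates 1 to 3 of 24 h and CD83 at 9.94, 9.89 and 8.65. Replicate 3 was thus the lower one in these genes, as in KLF6 and KLF10. These genes were picked by correlation over arrays that include this one, so the likeness there is not a separate observation. What set this array apart was not tested.

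Among the rest of the family and the related SP factors, which bind the same GC boxes, SP3 was the 1 gene called at any later time. Of the other KLF genes, 0 of the 7 measured (KLF1, KLF5, KLF8, KLF14, KLF15, KLF16 and KLF17) were called by the F test or at any time. By unadjusted p under 0.05 only KLF17 passed, at 24 h (-0.35, adjusted p = 0.209), where 4174 of all 18417 genes did. Their median difference lay between -0.07 and 0.04. Of the 8 SP factors measured, the F test called 0 and SP3 alone passed it unadjusted, as 5030 of all 18417 genes did. SP3, which can activate or repress at GC boxes, was lower by 0.57 at 24 h (adjusted p = 0.046) and by 0.59 at 48 h (adjusted p = 0.0335), where it went from 6.93 ± 0.20 to 6.34 ± 0.21 (SD, n = 3 each). The 48 h call of SP3 was lost under 5 of 26 alternatives, those without replicate 1 or 3 of 0 h or replicate 2 or 3 of 48 h among them (adjusted p from 0.0638 to 0.134). SP1 differed by at most -0.20, at 12 h.

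Of the 13 partners and ubiquitin ligases of KLF proteins, 3 passed the F test, HDAC3, FBXW7 and EP300, where 16.4% of all genes did. HDAC3 and EP300 passed it narrowly (adjusted p = 0.0415 and 0.0413). The F test counts of the gene lists were not repeated under the alternative settings. FBXW7, the substrate receptor of a ubiquitin ligase known to act on KLF2, rose by 1.09 at 4 h, from 7.37 ± 0.14 to 8.45 ± 0.30 (SD, n = 3 each, adjusted p = 0.01). It was still higher at 8 h (adjusted p = 0.0234) and differed by 0.05 at 24 h. HDAC3, a histone deacetylase of the class that butyrate inhibits, rose by 1.34 at 24 h (adjusted p = 0.0143), a call lost without replicate 1 of 0 h (adjusted p = 0.081) or replicate 3 of 24 h (0.0623). The acetyltransferase EP300 rose by 0.82 at 24 h (adjusted p = 0.00805) and was higher by 0.74 at 48 h. Leaving out replicate 2 of 0 h ended the 24 h call (adjusted p = 0.054). The corepressors CTBP1, CTBP2 and SIN3A, named here for their part in repression by KLF3, KLF12, KLF10 and KLF11, were not called by the F test (adjusted p = 0.195, 0.537 and 0.887). At 24 h 3 of the 13 rose (6.74% of all genes did), these being HDAC3, EP300 and KAT2B, with a list median of 0.21. KAT2B, an acetyltransferase gene, was higher by 0.59 (adjusted p = 0.0381), a call lost under 6 of 26 alternatives.

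Of the 13 upstream regulators measured, 3 passed the F test (16.4% of all genes did), SMAD3, TGFB1 and TGFBR2, of the TGF-beta pathway for which KLF10 and KLF11 are named. The other genes of that pathway on the list were not called by the F test: TGFBR1 (adjusted p = 0.453), a receptor whose largest difference from 0 h was 0.38 at 4 h, SMAD2 (0.743), with -0.32 at 8 h, and SMAD4 (0.412), with -0.52 at 4 h. TGFB1, the ligand, had a 0 h mean of 4.30 ± 0.19 (SD, n = 3). It rose by 1.15 at 8 h (adjusted p = 0.0031), by 1.04 at 12 h (adjusted p = 0.00494), by 1.30 at 24 h (adjusted p = 0.0005) and by 1.04 at 48 h (adjusted p = 0.00246). At 4 h TGFB1 differed by 0.73 (SE 0.22) and was not called (adjusted p = 0.104). A relation of TGFB1 to the level of KLF10 was not tested. SMAD3, a transcription factor that carries the signal, rose by 0.91 at 12 h, 1.59 at 24 h and 1.53 at 48 h. The receptor TGFBR2 rose by 0.57 at 24 h (adjusted p = 0.035), a call lost under 6 of 26 alternatives, among them the centring of each array on its median (0.0615) and leaving out any of the 24 h arrays (0.0815 to 0.0892) or replicate 1 or 2 of 0 h (0.139 and 0.0628). At 48 h TGFBR2 differed from 0 h by -0.22 and was not called (adjusted p = 0.467). The kinase gene MAPK7 and the factors MEF2A, MEF2C, MEF2D and FOXO1, known as regulators of KLF2, were not called by the F test (adjusted p from 0.0573 to 0.886). The list median was 0.35 at 24 h.

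Of 16 genes known as KLF targets, 3 passed the F test: CCL5, CDKN1A and, at adjusted p = 0.0493, NOS3. That share was near the 16.4% of all genes called. These 3 were higher than at 0 h at the times they were called. CCL5, a chemokine gene that KLF13 activates in T cells, stood at 9.56, 8.95 and 5.54 at 24 h and at 10.24, 10.23 and 7.44 at 48 h, against 4.61, 4.02 and 4.25 at 0 h. At both times replicate 3 was the lowest, yet above the 0 h arrays. CCL5 was higher by 3.72 at 24 h (adjusted p = 0.00317) and by 5.01 at 48 h (adjusted p = 0.000176). KLF13 itself differed by 0.32 at 24 h and by 0.46 at 48 h and was not called (adjusted p = 0.458 and 0.194). Whether KLF13 took part in the rise of CCL5 was not tested. CDKN1A rose by 1.31 at 24 h, from 4.67 ± 0.28 to 5.97 ± 0.71 (SD, n = 3 each, adjusted p = 0.00719), and was higher by 1.16 at 48 h. Leaving out replicate 1 of 24 h ended that call (adjusted p = 0.0521). NOS3, a KLF2 target in endothelium, rose by 0.95 at 48 h (adjusted p = 0.0155), a call lost without replicate 2 of 0 h or replicate 2 or 3 of 48 h (adjusted p from 0.0542 to 0.0664). S1PR1, the homing receptor gene that KLF2 activates in lymphocytes, was at 2.61 ± 0.04 at 0 h (SD, n = 3), below the lower quartile of each of these arrays, and was not called. The median of the list was 0.01 at 24 h and 0.05 at 48 h.

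**Figure D4:**
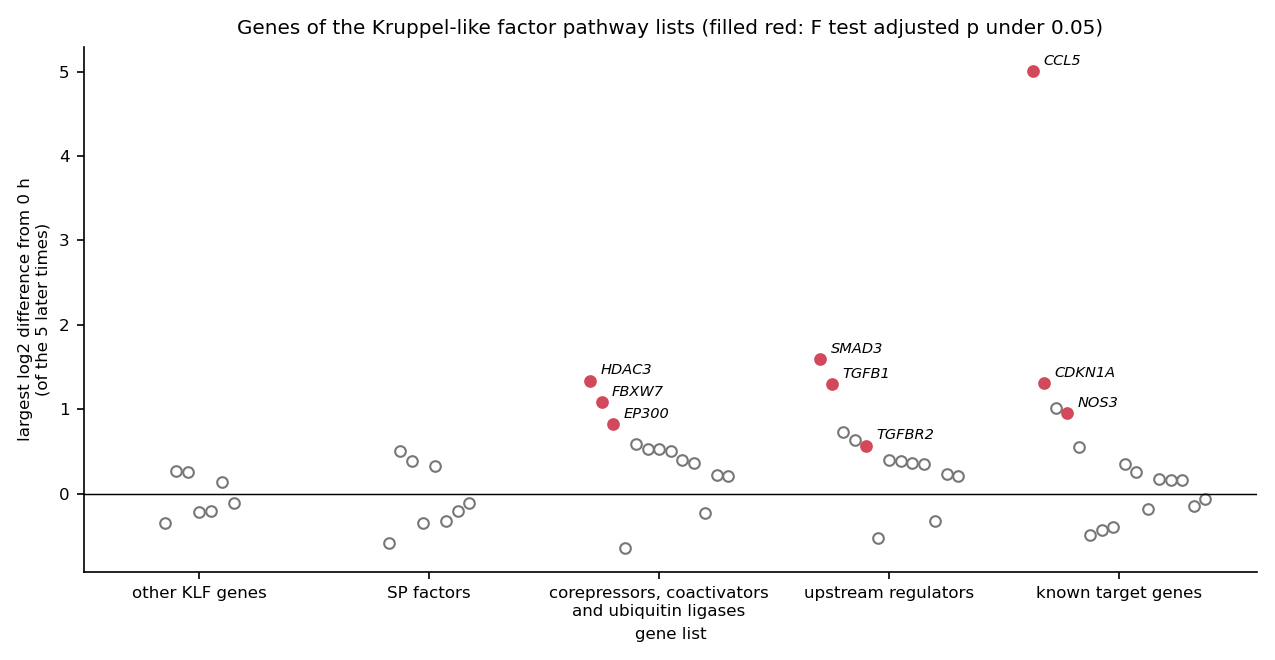
Largest log2 difference from 0 h at any of the 5 later times (y axis) for each gene of the 5 lists (x axis), with 1 point per gene and filled red points for an F test adjusted p under 0.05. CCL5 stands highest, at 5.01, and 0 of the genes among other KLF genes and SP factors are filled.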

How the data were processed

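RNA of Raji cells was hybridised to Affymetrix arrays that measure whole transcripts, 3 for each of 6 harvest times. The deposited tables hold 1 log2 intensity for each of 33297 probe sets per array, as the values show. The normalization that the authors applied before deposit is not given in the sources used here. A normalization that equalises arrays removes any change shared by all genes. The number of arrays limits the precision. The 18 tables hold different values.

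Genes were named through the platform's gene table, in which 19460 probe sets had 1 gene symbol, 1754 several and 12083 none. For each of the 18417 genes the 1-gene probe set of highest mean was used (769 genes had more than 1). limma 3.58.1 in R 4.3.3 fitted the 6 group means to all arrays (12 residual degrees of freedom, 5.58 prior degrees of freedom). It tested each time against 0 h, consecutive times, and all times together by the moderated F test, with Benjamini-Hochberg adjustment over all genes at 0.05. The fit and its recovery of known changes were tested on simulated data.

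The members and the lists of partners, regulators and targets were chosen with earlier results of these data known. The rule for named genes took all 10 members, up to 4 genes of each list with the largest difference among those past the F test, and for each called member the 3 genes of highest correlation. KLF3-AS1, KLF17, SP1, SP3, KAT2B, CTBP1, CTBP2, SIN3A, MAPK7, the MEF2 genes, FOXO1 and S1PR1 are named outside it and were chosen after their values were seen. Alternative settings were array weights, quantile normalization, centring on the median, the replicate block, fits to the 6 arrays of a comparison, the mean of a gene's probe sets, removal of genes with a mean below the lower quartile, and leaving out each array. Leaving out replicate 2 of 8 h and replicate 3 of 24 h together was added after seeing the data. In such bulk samples, fewer cells of a type and less RNA per cell cannot be told apart. Promoters are RefSeq's, from the table given for GRCh38.p14, and those on chromosome 8, where KLF10 lies, were left out for the members.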

Additional observations from a re-analysis of the deposited data

How the results depend on the processing

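Under 26 alternatives (25 for the F test) no member's called difference changed direction, and limma called KLF3 and KLF6 at 24 h and 48 h under each of them. Leaving out 1 array could not have reversed a called difference, since in each the later arrays lay apart from those of 0 h. The 6 other called differences were lost under at least 1, as given with them above. Under array weights the members called were 5 by the F test (KLF12 and KLF13 added, adjusted p = 0.0194 and 0.0485), 2 at 8 h and 2 at 12 h (KLF6 added to both, 0.0346 and 0.0447), 1 from 4 h to 8 h and 2 from 12 h to 24 h. Fits to the 6 arrays of a comparison called 1 member at 4 h, 2 at 12 h and 2 at 24 h, and median centring 1 at 4 h. Leaving out 1 array gave 1 to 3 members by the F test, 0 to 2 at 4 h, 0 to 1 at 8 h, 0 to 2 at 12 h, 2 to 3 at 24 h and 2 to 3 at 48 h. The replicate block called 3 members by the F test and 2, 1, 1, 3 and 3 at the later times, the same counts as without it. Deviations from the group means correlated from -0.24 to 0.60 over 45 pairs of arrays of the same number (median 0.08, 20 over 0.1) and had a median of -0.06 over 90 other pairs (25 over 0.1). Since not every pair was over 0.1, the numbers were not taken to pair the arrays. Paired arrays could also fail this rule, so it does not exclude pairing. Of the 18 arrays, 15 correlated best with their own number, a hint from the data and not the design. KLF4 and KLF11 have no value where genes with a mean below the lower quartile were removed. Of the 80 uncalled differences, 5 became called under some alternative and 44 changed sign.

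Over all genes, array weights called 5422 by the F test, 566 at 4 h, 2183 at 8 h, 1039 from 4 h to 8 h, 142 from 8 h to 12 h, 1099 from 12 h to 24 h and 206 from 24 h to 48 h. Without weights these were 3023, 322, 1230, 41, 0, 252 and 74. The weighted counts that involve 8 h rest mostly on replicate 1 of that time, whose weight was 5.18. Fits to 6 arrays called 125 genes at 4 h, 575 at 8 h, 0 from 4 h to 8 h and 10 from 24 h to 48 h. Quantile normalization called 68 from 4 h to 8 h, and leaving out replicate 2 of 8 h and replicate 3 of 24 h together called 381 from 12 h to 24 h. Leaving out 1 array gave 2431 to 3240 genes by the F test, 109 to 417 at 4 h, 759 to 1285 at 8 h, 888 to 1733 at 12 h, 1634 to 2499 at 24 h and 2072 to 3050 at 48 h. Between consecutive times it gave 0 to 57, 105 to 335 and 35 to 258, the step from 8 h to 12 h left aside. The causes were not tested.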
